A study of Mus musculus with 2 samples.

Results

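Venous and large vessel endothelial cells line the vessels that drain and supply the lung, outside its dense capillary bed. They were taken from single lung cells profiled by droplet sequencing (10x Genomics) as barcodes that carried RNA of Cdh5, the junctional cadherin of endothelium, and none of Ptprc, the pan-leukocyte gene CD45. A member needed at least 4 UMIs (unique molecular identifiers, tags by which each captured RNA molecule is counted 1 time) over Vwf, Slc6a2 and Ackr3 together. This sum had to be at least the sum of the general capillary genes Gpihbp1, Plvap and Aplnr and at least that of the aerocyte genes Ca4, Ednrb and Apln, with fewer than 2 UMIs of the lymphatic genes Mmrn1, Prox1 and Reln. The rule found 265 of 18031 kept barcodes, 150 of them in the HIR library and 115 in the sham library.

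HIR stands for hepatic ischemia-reperfusion, a stop of blood flow to the liver followed by its return. The HIR library came from lung taken 6 hours after HIR, and the sham library from lung after sham surgery. Both are labelled as primary lung cells of wild type mice, dissociated with collagenase, elastase and DNase and freed of red cells by lysis. The labels give no age or sex, and do not say how many animals went into a library. All 32883 features carry rat Ensembl identifiers, so the species on the labels and the one of the gene annotation differ. With 1 library per group no difference between HIR and sham has a replicate check, and none was tested. Intervals are exact 95% intervals for counting error alone.

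In the venous system of many organs, endothelium is where leukocytes leave the blood. P-selectin and E-selectin on the endothelial surface slow passing leukocytes, and VCAM1 and ICAM1 then hold them through their integrins. P-selectin protein is stored with von Willebrand factor in Weibel-Palade bodies, while E-selectin and VCAM1 are made after transcription through NF-kB. The same cells keep blood fluid through thrombomodulin, the protein C receptor and tissue factor pathway inhibitor, and the walls of large vessels are held by elastic fibres.

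The libraries held 9499 and 10719 barcodes with 50801778 and 59566745 UMIs in HIR and sham, and 8593 and 9438 of these barcodes passed the quality filters. Members were deeper than other endothelial cells, with a median of 6190 UMIs in HIR and 5043 in sham, against 2964 and 3168 UMIs in general capillary cells. The range over members was wide, 1381 to 61380 UMIs in HIR and 723 to 88719 in sham, and the 5 deepest members held 16.3% and 25% of all member UMIs. The median mitochondrial share was 8.45% in HIR members and 8.03% in sham members. The libraries shared 24 barcodes, of which 1 was an HIR member and 0 were sham members.

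Most members lay far from the threshold of the rule. The median sum of Vwf, Slc6a2 and Ackr3 was 32 UMIs in HIR and 31 in sham, beside 14 and 16 UMIs of the capillary genes, and 106 and 85 members had 20 UMIs or more. Just inside the threshold, 2 HIR and 4 sham members had 4 UMIs. Just outside it, 5 HIR barcodes and 1 sham barcode that met every other condition had 3 UMIs. The comparison with the capillary sum removed far more, 357 of 508 HIR and 542 of 660 sham barcodes that had reached 4 UMIs, and 4 HIR and 5 sham members had equal sums. In these counts the border with general capillary cells was gradual.

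**Figure D1:**
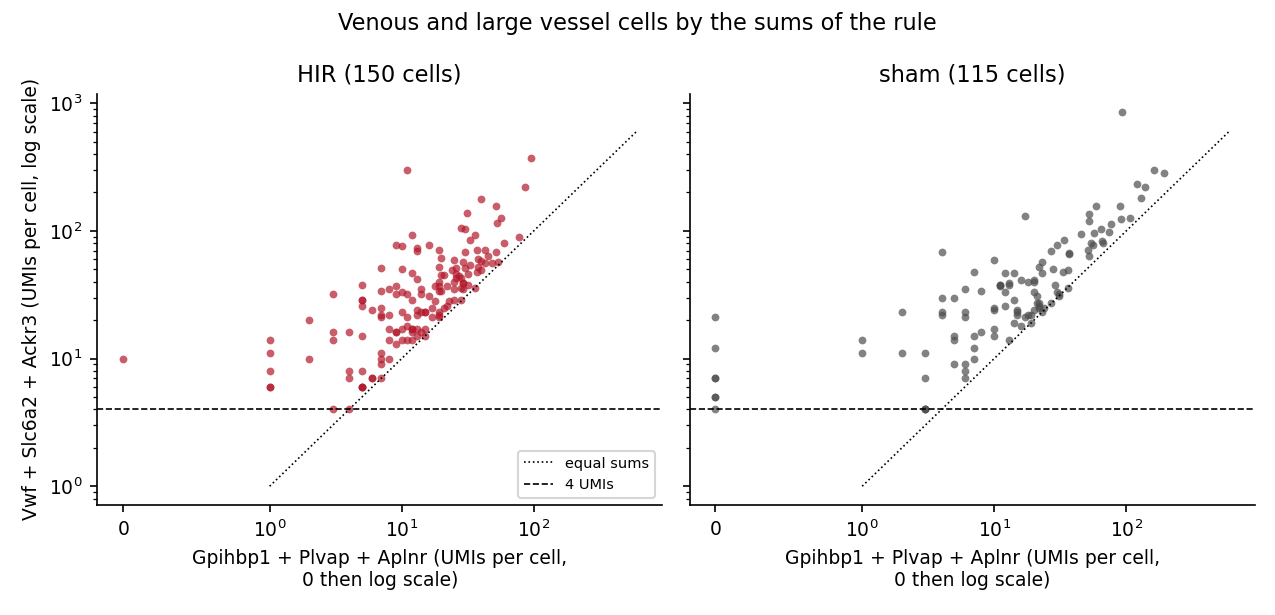
Each point is 1 venous and large vessel cell, with the UMIs of Gpihbp1, Plvap and Aplnr on the x axis and of Vwf, Slc6a2 and Ackr3 on the y axis, for HIR (left, 150 cells) and sham (right, 115 cells). Cells run up to and along the dotted line of equal sums, and few lie near the dashed line at 4 UMIs.

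The genes of the rule describe the choice and support nothing further. Vwf, which encodes the clotting factor carrier von Willebrand factor, had 3585 CPM (counts per 1000000 UMIs summed over the members) in HIR and 4177 CPM in sham, and 7 of 150 HIR members and 8 of 115 sham members had no Vwf UMI. Slc6a2, the noradrenaline transporter, had 164 CPM in HIR and 289 CPM in sham and was seen in 71 and 69 cells. Ackr3, an atypical receptor that binds CXCL12, had 1249 CPM in HIR and 1556 CPM in sham.

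The other 3 markers of the label, Vcam1, Procr and Nr2f2, were not used by the rule, and all 3 were higher in members than in general capillary cells of the same library. General capillary and aerocyte cells were chosen by the same steps with their own genes, 1328 and 283 cells in HIR and 1782 and 336 cells in sham. Vcam1 had 959 CPM in HIR members against 49.7 CPM in HIR capillary cells, 19.3-fold (17 to 22), and 434 CPM in sham members against 28.7 CPM in sham capillary cells, 15.1-fold (13 to 17.6). Procr, the endothelial protein C receptor, was 11.9-fold higher than in capillary cells in HIR (10.4 to 13.7) and 17.1-fold higher in sham (14.9 to 19.8). Nr2f2, a transcription factor of venous identity, was 5.29-fold higher in HIR and 5.59-fold higher in sham. The label held for these markers in both libraries. Because every gene of a cell can move with the genes that chose it, these folds describe the cells and are no test.

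**Figure D2:**
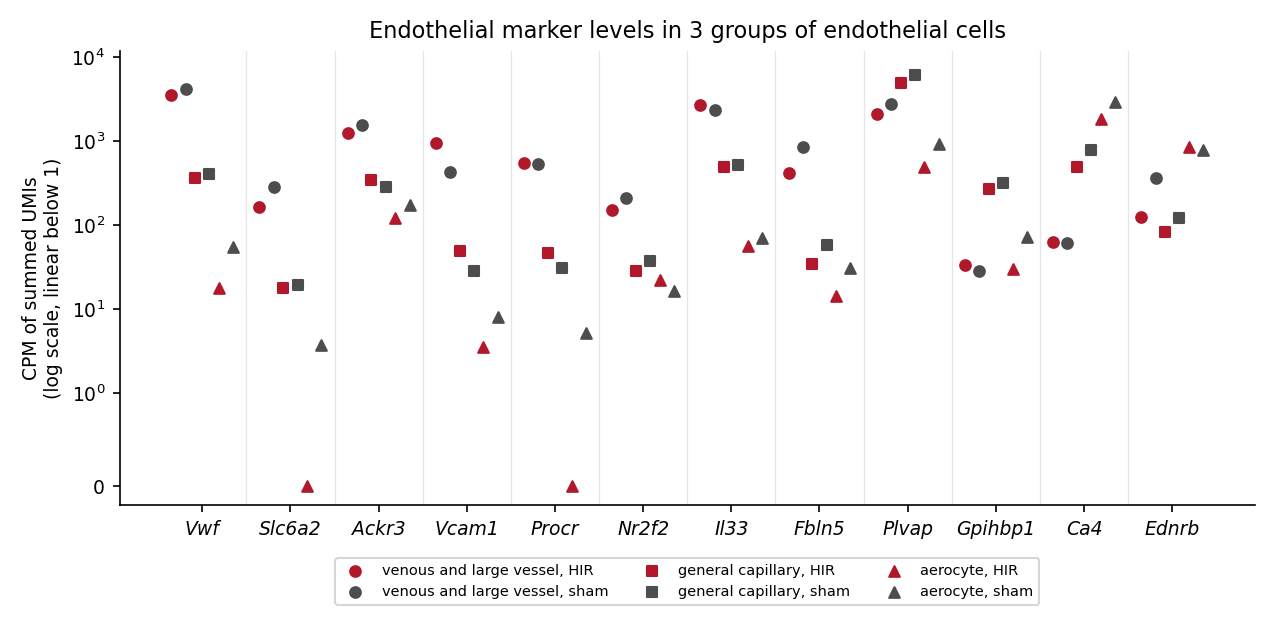
CPM of summed UMIs (y axis, log scale, linear below 1) of 12 endothelial genes in venous and large vessel cells (circles), general capillary cells (squares) and aerocytes (triangles), HIR in red left of sham in grey. Vcam1, Procr, Nr2f2, Il33 and Fbln5, which the rule did not use, stand higher in the circles than in the squares and triangles of both libraries.

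The genes that stood farthest above capillary cells in both libraries included secretory, receptor and matrix genes. Cpe, carboxypeptidase E of the regulated secretory pathway, had 138 CPM in HIR members and 114 CPM in sham members, against 4.8 and 2.15 CPM in capillary cells. Receptors for vasoactive agents were among them, with the serotonin receptor gene Htr2b at 95.3 and 79.9 CPM in HIR and sham members against 2.81 and 1.18 CPM in capillary cells, and the vasopressin receptor gene Avpr1a at 79.1 and 128 CPM against 2.98 and 2.58 CPM. Sulf1, which edits heparan sulfate at the cell surface, was 23.9-fold higher than in capillary cells in HIR and 34.8-fold higher in sham. Ch25h, which makes 25-hydroxycholesterol, Lbp, which carries lipopolysaccharide to CD14, Clu, Plac8, Tm4sf1, Adgrg6, Csrp2 and Vcan were at least 9.55-fold higher in both libraries. Against all other kept barcodes Plac8 was not higher, with 720 and 712 CPM in HIR and sham members and 1309 and 741 CPM in those barcodes. Vcan had 93.7 and 131 CPM in members and 181 and 28.5 CPM in those barcodes. Ch25h, Lbp, Clu, Tm4sf1, Adgrg6 and Csrp2 were higher in members in both libraries. An Lbp UMI was found in 30.5% of HIR and 10.3% of sham immune barcodes.

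Matrix genes were abundant. Eln, the elastin gene, had 3526 CPM in HIR members and 6910 CPM in sham members, against 305 and 395 CPM in capillary cells. Fbln5 and Fbln2, fibulins of the elastic fibre, were 12.3-fold and 21-fold higher than in capillary cells in HIR, and 14.7-fold and 26.2-fold higher in sham. Il33, an alarmin held in the nucleus, reached 2707 CPM in HIR members and 2377 CPM in sham members, against 488 and 527 CPM in capillary cells. The water channel gene Aqp1 was 4.37-fold higher than in capillary cells in HIR and 4.31-fold in sham.

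Members were not of 1 kind. Slc6a2 was seen in 71 of 150 HIR and 69 of 115 sham members, and 35 HIR members (23.3%) and 28 sham members (24.3%) carried at least 2 UMIs of the arterial genes Gja5, Gja4 and Dll4. Vegfc, a growth factor for lymphatic and venous endothelium, had 317 CPM in Slc6a2-positive and 109 CPM in Slc6a2-negative HIR members, and 537 against 104 CPM in sham. Vegfc was itself on the list of arterial markers, and most other genes of that list are not shown here. Ephb4, the venous receptor for ephrin-B2, had 358 against 163 CPM in HIR and 366 against 139 CPM in sham. Efnb2, its arterial partner, ran the other way, with 89.5 CPM in Slc6a2-positive and 487 CPM in Slc6a2-negative HIR members, and 33.3 against 467 CPM in sham.

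Cxcl12, a chemokine made by arterial endothelium, was found mostly in the Slc6a2-negative cells. It had 3.04 CPM in Slc6a2-positive and 193 CPM in Slc6a2-negative HIR members, and 2.56 against 117 CPM in sham. Of the 19 HIR cells with a Cxcl12 UMI, 17 also had an Efnb2 UMI and 2 had Slc6a2, and of the 10 such sham cells, 10 had Efnb2 and 2 had Slc6a2. Slc6a2 and the artery-side genes Efnb2 and Cxcl12 were thus carried by partly different cells, while Vegfc, also a listed arterial marker, ran with Slc6a2. Vwf was high in both, at 3671 CPM in Slc6a2-positive and 3497 CPM in Slc6a2-negative HIR members, and 4703 against 2843 CPM in sham.

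Members made up 1.75% of kept HIR barcodes (1.48 to 2.05) and 1.22% of kept sham barcodes (1.01 to 1.46), a ratio of 1.43 (1.12 to 1.84). Among barcodes with Cdh5 and no Ptprc they made up 7.8% in HIR (6.64 to 9.1) and 4.77% in sham (3.95 to 5.7), a ratio of 1.64 (1.28 to 2.11). Plvap, 1 of the capillary genes that limit membership, had 4953 CPM in HIR capillary cells and 6245 CPM in sham capillary cells, and a larger share cannot be told apart from a change in the genes that define it. Counting only members with no UMI of the neutrophil genes S100a8 and S100a9, 25 in HIR and 91 in sham, the ratios were 0.302 of kept and 0.345 of endothelial barcodes. Only the members were filtered in this way, not the barcodes they were divided by. Neutrophil markers summed to 486 CPM in HIR members and 83.5 CPM in sham members, so these ratios cannot show how the share differed.

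Comparing HIR with sham members, 84 of 5493 genes with a mean of at least 20 CPM were at least 2-fold higher in HIR (1.53%) and 99 were at least 2-fold lower (1.8%), after 10 CPM was added to both values. At any size, 44.4% were higher and 55.6% lower, and the median log2 ratio was -0.04. The corresponding shares at 2-fold were 0.65% higher and 0.897% lower in capillary cells, and 1.24% and 0.896% in aerocytes, where the number of cells and so the counting error differ.

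Of the genes for leukocyte adhesion and rolling, 3 of 15 at this level were at least 2-fold higher in HIR, against 1.53% of all genes, and 0 were at least 2-fold lower. The 3 were Sele, Selp and Vcam1. The median log2 ratio of the list was 0.00, and 7 of its genes were lower, among them Jam2 at 523 CPM in HIR and 753 CPM in sham. Sele, the E-selectin gene, had 95 UMIs in 23 HIR cells and 12 UMIs in 6 sham cells, which is 73 CPM in HIR against 11 CPM in sham and 6.63-fold higher (3.62 to 13.3). Selp, the P-selectin gene, had 131 UMIs in 37 HIR cells and 25 UMIs in 19 sham cells, 101 CPM in HIR against 22.9 CPM in sham and 4.39-fold higher (2.84 to 7.02). Selectin RNA was thus seen in a minority of cells in both libraries.

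Few cells held much of the selectin RNA. The 3 cells with the most Selp held 44.3% of its HIR UMIs and 36% of its sham UMIs, and for Sele these shares were 36.8% in HIR and 66.7% in sham. When every cell was thinned to 2000 UMIs, which left 143 HIR and 102 sham members, a Selp UMI was found in 6.29% of HIR and 5.88% of sham cells, against 24.7% and 16.5% before thinning. Of the 23 HIR cells with Sele, 17 also had Selp and 21 had Vcam1, and of the 6 sham cells 4 had Selp and 6 had Vcam1. Slc6a2 was present in 12 of the 23 HIR cells and 4 of the 6 sham cells with Sele. In immune barcodes of the same libraries, which should lack E-selectin and had a median of 4794 UMIs in HIR and 5218 in sham, a Sele UMI was found in 0.139% of HIR cells, and a Selp UMI in 2.57% of HIR and 1.05% of sham cells.

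Vcam1 was broad. It was seen in 74% of HIR members and 68.7% of sham members, and 2.21-fold higher in HIR (1.99 to 2.46) at 959 CPM against 434 CPM in sham. Icam1 had 487 CPM in HIR and 263 CPM in sham, 1.85-fold higher (1.61 to 2.13). In capillary cells Selp was 7.97-fold higher in HIR, but at 9.43 CPM against 1.18 CPM in sham. Sele had 0.497 CPM in HIR capillary cells and 0.538 CPM in sham capillary cells. In the members with no S100a8 or S100a9 UMI the log2 ratio, after 10 CPM was added, was 0.37 for Vcam1 against 1.13 in all members, 0.38 for Icam1 against 0.86, and 0.87 for Sele against 1.98. The rule was also applied anew to barcodes thinned to 2000 UMIs, with a sum of at least 2 UMIs. In the 101 HIR and 82 sham members chosen in this way the log2 ratio was 2.99 for Sele. In Slc6a2-positive members it was 2.53 for Selp against 1.75 in all members. Icam2, which endothelium makes without a stimulus, had 815 CPM in HIR members and 904 CPM in sham members.

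**Figure D3:**
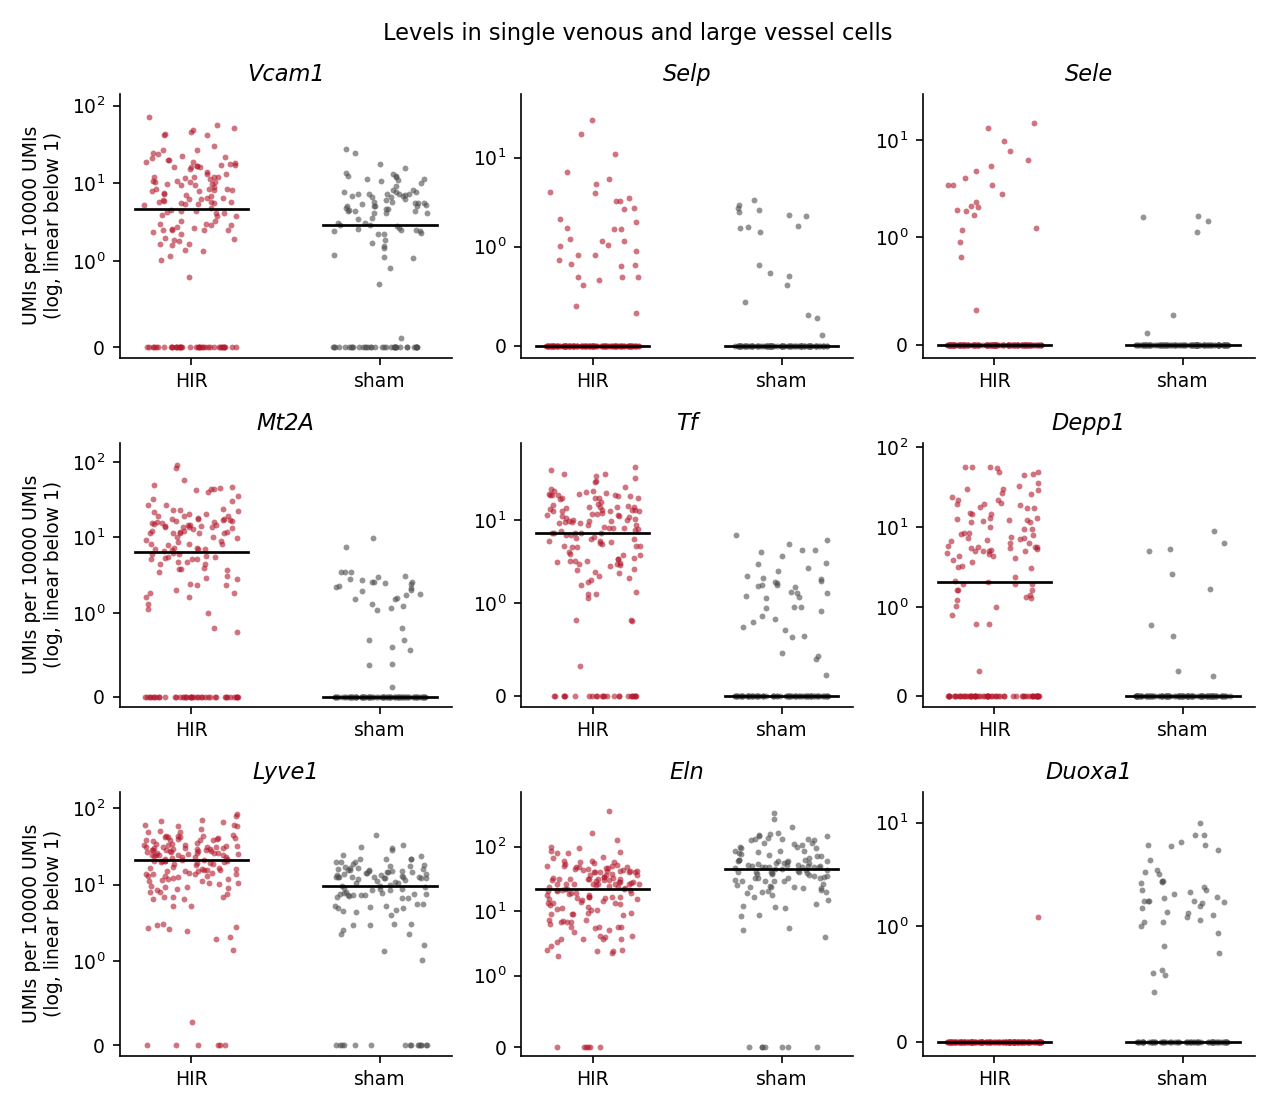
Each point is 1 venous and large vessel cell, HIR left of sham, with UMIs of the gene per 10000 UMIs of the cell on the y axis (log scale, linear below 1) and the median of each library as a black bar. Vcam1, Mt2A, Tf, Depp1 and Lyve1 are higher in the median HIR cell, Selp and Sele have a median of 0 in both libraries, and Duoxa1 was seen in 1 HIR cell and 46 sham cells.

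All 12 measured genes of the NF-kB list were higher in HIR, against 44.4% of all genes. Of the 12, 3 were at least 2-fold higher, against 1.53% of all genes. Nfkbia, the inhibitor that NF-kB induces to end its own action, had 2234 CPM in HIR and 753 CPM in sham, 2.97-fold higher (2.74 to 3.21). Csf1, the macrophage growth factor, had 61.5 CPM in HIR and 22 CPM in sham, and Bcl3, a nuclear partner of NF-kB p50, had 46.9 and 16.5 CPM. Csf1 had a log2 ratio of -0.59 in the members with no S100a8 or S100a9 UMI, against 1.16 in all members. The subunit genes differed less, with Nfkb1 at 89.9 CPM in HIR and 67 CPM in sham and Rela at 85.3 and 60.6 CPM. In capillary cells 10 of 10 measured genes of the list were higher in HIR (49.6% of all genes), and in aerocytes 5 of 8 (48.1% of all genes). The median log2 ratio of the list was 0.52 in members, 0.25 in capillary cells and 0.13 in aerocytes. Nfkbia itself was 3.8-fold higher in HIR capillary cells and 3.23-fold in HIR aerocytes.

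Of 12 measured genes of the cytokine and cytokine receptor list, 8 were higher in HIR (44.4% of all genes), 0 at least 2-fold higher and 1 at least 2-fold lower. That gene was Tnfrsf11b, osteoprotegerin, at 16.9 CPM in HIR and 60.6 CPM in sham, with 93.9% of its sham UMIs in 1 cell. Outside the list, Tnfrsf11a, the receptor RANK, had 88.4 CPM in HIR and 17.4 CPM in sham, 5.07-fold higher (3.1 to 8.72), against 4.04-fold in capillary cells. Il6st, the shared signalling chain gp130, had 149 CPM in HIR and 69.8 CPM in sham, and the TNF receptor gene Tnfrsf1a had 200 and 110 CPM. Il33 differed little, 1.14-fold higher in HIR (1.08 to 1.2). Monocyte and neutrophil chemokines gave no such order. Ccl2 had 19.2 CPM in HIR and 68.8 CPM in sham, but 1 cell held 81.3% of its sham UMIs, and 1 HIR cell held 95.4% of the Cxcl3 UMIs.

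Of 5 measured genes of the metallothionein, zinc and iron list, 3 were at least 2-fold higher in HIR (1.53% of all genes), and the median log2 ratio was 2.62. Mt2A and Mt1, the metallothioneins that bind zinc and copper, had 1107 and 806 CPM in HIR against 101 and 123 CPM in sham, 11-fold (9.03 to 13.4) and 6.55-fold (5.47 to 7.9) higher. Tf, the iron carrier transferrin, had 1025 CPM in HIR and 81.7 CPM in sham, 12.5-fold higher (10.1 to 15.7). Of 150 HIR members 102 had both Mt2A and Tf, 8 had Mt2A only, 24 had Tf only and 16 had neither. Of 115 sham members 23 had both, 13 had Mt2A only, 19 had Tf only and 60 had neither.

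Capillary cells had less of these genes in HIR. Mt2A was 3.58-fold higher in HIR capillary cells, at 83.6 CPM against 23.4 CPM in sham capillary cells, and Tf was 5.19-fold higher, at 126 against 24.2 CPM. In aerocytes the Mt2A ratio was 0.598. A Tf UMI was also found in 50.9% of HIR and 35.9% of sham immune barcodes, so RNA of Tf was widespread in both libraries, and all other kept barcodes had 348 CPM in HIR and 147 CPM in sham. In the members with no S100a8 or S100a9 UMI the log2 ratio of Tf was 2.54 against 3.50 in all members, and that of Mt2A 2.96 against 3.33. The part of free RNA in the member values was not tested.

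Depp1, a FOXO target first described in decidua, was seen in few sham members. It had 898 UMIs in 92 HIR cells and 14 UMIs in 10 sham cells, 690 CPM in HIR against 12.9 CPM in sham and 53.7-fold higher (31.8 to 98.6). Capillary cells had 339 CPM in HIR and 20 CPM in sham, 16.9-fold, and aerocytes 8.45-fold. Of the HIR members with Depp1, 73 also had Mt2A and 19 did not.

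Of 12 measured glucocorticoid response genes, 9 were higher in HIR (44.4% of all genes) and 3 were at least 2-fold higher (1.53% of all genes), 2 of which were the metallothioneins. Cebpd, a transcription factor of the acute phase, had 1090 CPM in HIR and 220 CPM in sham, 4.95-fold higher (4.31 to 5.7), against 3.5-fold in capillary cells. Ddit4, an inhibitor of mTORC1, had 1023 CPM in HIR and 525 CPM in sham. Tsc22d3, which encodes GILZ and is a classic glucocorticoid target, had 776 CPM in HIR and 834 CPM in sham, and the glucocorticoid receptor gene Nr3c1 had 110 and 134 CPM. The higher values of the list were thus not shared by these genes. Among growth and FOXO stress genes, Cdkn1a, the cell cycle inhibitor p21, was 2.7-fold higher in HIR (1.72 to 4.38), Pim3 was 2.75-fold higher, and Ccnd1, cyclin D1, was 2.16-fold lower at 56.1 CPM in HIR against 121 CPM in sham.

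Lipid and nucleotide genes followed. Lpl, lipoprotein lipase, had 216 CPM in HIR and 20.2 CPM in sham, 10.7-fold higher (6.92 to 17.3), and was seen in 100 HIR cells and 13 sham cells. Capillary cells had more Lpl in both libraries, 582 CPM in HIR and 234 CPM in sham. Slc43a3, a transporter of purine nucleobases, was 4.74-fold higher in HIR (3.26 to 7.09), and Xdh, the xanthine oxidoreductase that makes uric acid, 3.62-fold higher (2.82 to 4.7), at 256 CPM against 70.7 CPM in sham. In capillary cells these genes were 4.05-fold and 4.15-fold higher in HIR. Fabp5, a fatty acid carrier, was 4.32-fold lower (3.51 to 5.36), at 88.4 CPM in HIR against 382 CPM in sham, whereas its ratio was 0.883 in capillary cells and 1.42 in aerocytes. Ldhb, the heart form of lactate dehydrogenase, was 3.09-fold lower. In the members chosen after thinning, the log2 ratio was 2.18 for Lpl against 2.90 in all members, and -2.82 for Fabp5 against -1.99.

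**Figure D4:**
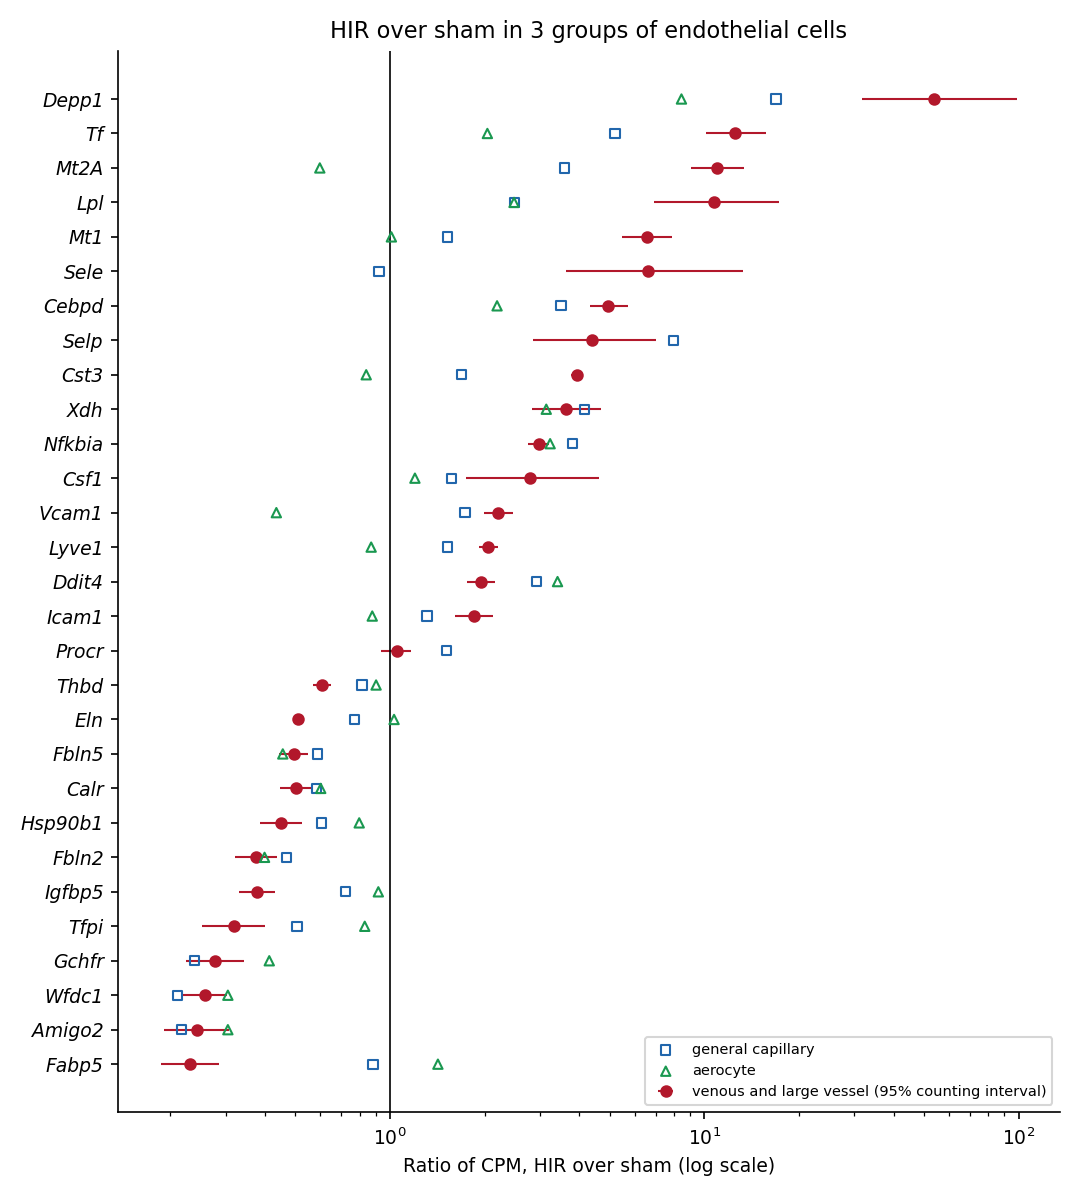
Ratio of CPM, HIR over sham (x axis, log scale), for 29 genes in venous and large vessel cells (filled circles with exact 95% counting intervals), general capillary cells (squares) and aerocytes (triangles). No symbol is drawn where a group had no UMI in 1 of the libraries. Mt2A, Tf, Cst3 and Fabp5 lie farther from 1 in the circles, while Xdh, Nfkbia, Amigo2 and Wfdc1 lie close together in all 3.

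Other named genes that were higher in HIR included Cst3, the protease inhibitor cystatin C, with 8651 CPM in HIR and 2209 CPM in sham, 3.92-fold higher (3.75 to 4.09), against 1.69-fold in capillary cells and a ratio of 0.84 in aerocytes. Scn3b, a sodium channel subunit, was 5.24-fold higher (3.57 to 7.92), and Cyp1a1, a target of the aryl hydrocarbon receptor, 3.28-fold (2.73 to 3.97). Members had less Scn3b than the other groups, 149 CPM in HIR and 28.5 CPM in sham. Capillary cells had 357 and 324 CPM of Scn3b, and aerocytes 240 and 289 CPM. Cyp1a1 had 434 and 132 CPM in members, and 340 and 275 CPM in capillary cells, where it was 1.24-fold higher in HIR. The log2 ratio of Cyp1a1 was 1.64 in all members, 0.48 in those with no S100a8 or S100a9 UMI and 0.77 in those chosen after thinning. Lyve1, a hyaluronan receptor best known from lymphatic vessels, had 2300 CPM in HIR and 1120 CPM in sham, 2.05-fold higher (1.92 to 2.2). Reln had 0 UMIs in both libraries, and Mmrn1 and Prox1 had 0 in sham but not in HIR. The rule allowed fewer than 2 UMIs of these 3 genes per cell, so their low level describes the choice only. Pla2g1b also met the rule for named genes, but 1 cell held 96.3% of its HIR UMIs.

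Of 14 measured genes of the anticoagulant and fibrinolytic list, 11 were lower in HIR, against 55.6% of all genes, 2 were at least 2-fold lower (1.8% of all genes), and the median log2 ratio was -0.29. The list also holds genes that favour clotting, among them F3, F8 and Vwf, which the rule used, so its count has no single direction of function. Tfpi, the inhibitor of the tissue factor pathway, had 83 CPM in HIR and 260 CPM in sham, 3.13-fold lower (2.5 to 3.94). Thbd, thrombomodulin, had 1232 CPM in HIR and 2024 CPM in sham, 1.64-fold lower (1.54 to 1.75), and Entpd1, which breaks down ATP and ADP at the surface, 50.7 and 98.2 CPM. Procr did not share this direction, at 556 CPM in HIR and 532 CPM in sham, and Cd59, which blocks the complement attack complex, was 1.61-fold higher. F3, tissue factor, had 6.15 CPM in HIR and 35.8 CPM in sham, yet 1 cell held 43.6% of its sham UMIs, and without the barcodes mixed with other cell types it had 2.46 CPM in HIR and 1.04 CPM in sham. In capillary cells Tfpi was lower as well, at 99 CPM in HIR and 196 CPM in sham, and Thbd had 1812 and 2224 CPM.

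Several of the matrix genes that marked these cells were lower in HIR. Of 23 measured genes of the matrix list 14 were lower, a share near the 55.6% of all genes. 5 were at least 2-fold lower (1.8% of all genes) and 1 was at least 2-fold higher, with a median log2 ratio of -0.52. Eln was 1.96-fold lower (1.89 to 2.03), Fbln5 2.02-fold (1.82 to 2.25) and Fbln2 2.66-fold (2.29 to 3.11), at 187 CPM in HIR and 499 CPM in sham. Igfbp5, a matrix-bound carrier of insulin-like growth factors, had 251 CPM in HIR and 666 CPM in sham, and Fn1, fibronectin, 69.9 and 187 CPM. In the members with no S100a8 or S100a9 UMI the log2 ratio was -0.78 for Fbln2 against -1.37 in all members, and -2.05 for Igfbp5 against -1.37. The basement membrane gene Col4a1 was 1.2-fold higher (1.02 to 1.42) and Timp3, an inhibitor of matrix proteases, had 182 CPM in HIR and 150 CPM in sham.

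RNA of other cell types differed along with these values. Fibroblast markers summed to 2044 CPM in HIR members and 2719 CPM in sham members, and smooth muscle markers to 831 and 3056 CPM, of which 1 sham cell held 66.9%. With the 5 HIR and 6 sham barcodes left out that had at least 2% of their UMIs in the markers of fibroblasts, smooth muscle, type 2 epithelium or red cells, fibroblast markers summed to 783 CPM in HIR and 376 CPM in sham, the opposite order, and smooth muscle markers to 878 and 1133 CPM. The matrix median was then -0.13, with 12 of 22 measured genes lower. Eln then had 3623 CPM in HIR and 7338 CPM in sham, against 3526 and 6910 CPM in all members, and Fbln2 then had 187 and 527 CPM. This step kept the sham cell with the most Eln, which held 22.3% of the sham Eln UMIs, against 9.48% in the top HIR cell. The part of single cells in the Eln difference was not tested. The contractile genes Actg2, Tpm2, Myl9, Lmod1 and Cald1, with Lgals1, Id4 and Map1b, were lower in HIR by the rule for named genes, but a single sham cell held between 50.7% and 92% of the sham UMIs of each. In HIR, a single cell held 57.9% of the Tpm2 UMIs, 63.7% of the Myl9 UMIs and 68.2% of the Lmod1 UMIs. Actg2 without the mixed barcodes had 26.2 CPM in HIR and 26 CPM in sham, whereas Map1b had 25.4 and 77.9 CPM. With doublets left out instead, the log2 ratio was -4.26 for Tpm2 against -2.11 in all members, and -3.82 for Actg2 against -3.11.

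Most protein folding genes were lower in HIR. Of 18 measured genes of the unfolded protein response and the chaperones of the endoplasmic reticulum, 16 were lower in HIR (55.6% of all genes) and 2 were at least 2-fold lower (1.8% of all genes), with a median log2 ratio of -0.47. Hsp90b1, the chaperone GRP94, had 201 CPM in HIR and 446 CPM in sham, 2.22-fold lower (1.9 to 2.59), Calr, calreticulin, had 369 and 734 CPM, and Hspa5, the chaperone BiP, 395 and 694 CPM. The stress transcription factor genes of the list differed less, with Atf4 at 349 CPM in HIR and 367 CPM in sham and Ddit3 at 136 and 140 CPM. All 12 cytosolic heat shock genes were lower in HIR (55.6% of all genes), with 0 of them past 2-fold and a median of -0.34. Hspa8, for example, had 711 CPM in HIR and 1055 CPM in sham. The other groups were close to this, with 10 of 12 lower and a median of -0.27 in capillary cells, and 10 of 12 and -0.31 in aerocytes. The medians of the folding list in capillary cells and aerocytes were -0.23 and -0.15.

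**Figure D5:**
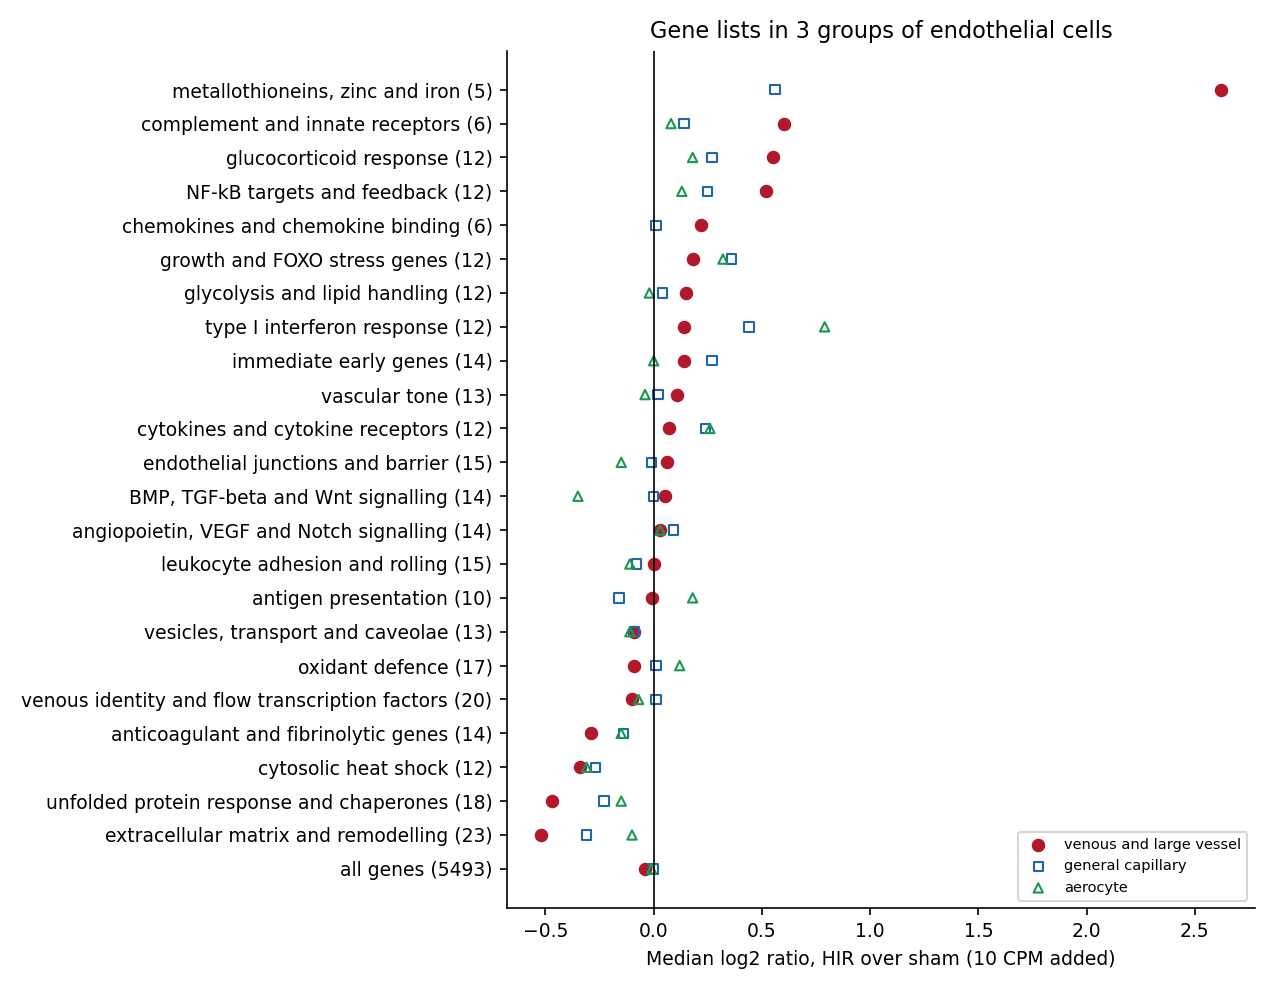
Median log2 ratio of HIR over sham, with 10 CPM added (x axis), for gene lists in venous and large vessel cells (circles), general capillary cells (squares) and aerocytes (triangles). Numbers after each list give its genes at the level in venous and large vessel cells, lists with fewer than 5 are not drawn, and the median of all genes is at the foot. The metallothionein list stands at 2.62 in venous and large vessel cells and the matrix list at -0.52.

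Among oxidant genes, the DUOX1 pair was close to undetected in HIR. Duoxa1, the maturation factor of the hydrogen peroxide producing enzyme DUOX1, had 1 UMI in 1 HIR cell and 121 UMIs in 46 sham cells, 0.768 CPM in HIR against 111 CPM in sham and 145-fold lower (25.5 to 5757). Duox1 had 2 UMIs in HIR and 50 in sham, 29.9-fold lower (7.85 to 253). Both genes were found together in 21 sham cells and in 0 HIR cells. In sham capillary cells Duoxa1 had 5.17 CPM and Duox1 0.431 CPM. Duoxa1 was lower in HIR capillary cells too, at 0.331 CPM and 15.6-fold (4.09 to 133). Gpx2, a glutathione peroxidase, had 66 UMIs in HIR and 0 in sham, at least 18.4-fold higher when the sham level is set at 3 UMIs, but capillary cells had 311 CPM in HIR and 52.1 CPM in sham, more than members in both libraries. Sod2, the mitochondrial superoxide dismutase, had 197 CPM in HIR and 106 CPM in sham.

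Gchfr, Amigo2, Emp1, Serpinb9 and Wfdc1 were lower in HIR members, and 1 cell held at most 13% of the UMIs of each in either library. Gchfr, the feedback regulator of tetrahydrobiopterin synthesis, was 3.6-fold lower (2.92 to 4.47), Amigo2 4.11-fold (3.25 to 5.24), Emp1 3.95-fold (3.14 to 4.99), and Serpinb9, an inhibitor of granzyme B, 5.4-fold (3.41 to 8.9). Wfdc1, a secreted protein of the WAP family, had 158 CPM in HIR and 612 CPM in sham, 3.87-fold lower (3.3 to 4.54). Capillary cells showed ratios of similar size for Gchfr (0.239), Amigo2 (0.217), Emp1 (0.319) and Wfdc1 (0.211). In the members with no S100a8 or S100a9 UMI the log2 ratio was -0.49 for Wfdc1 against -1.89 in all members, and -3.58 for Serpinb9 against -1.93. S100a4 was 8.42-fold lower, but 1 cell held 54.5% of its sham UMIs.

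Genes of the identity and barrier lists stayed within 2-fold, though several of them differed. Of 20 measured transcription factors and receptors of venous identity and flow, 15 were lower in HIR (55.6% of all genes) and 0 were past 2-fold in either direction, with a median of -0.10. Nr2f2 had 150 CPM in HIR and 211 CPM in sham, Ephb4 262 and 302 CPM, and Erg, a regulator of endothelial identity, 148 and 148 CPM. Sox17, best known in arteries, had 357 CPM in HIR and 207 CPM in sham, and Vegfc, which was higher in the Slc6a2-positive cells, 214 and 414 CPM. Of 11 measured arterial markers 7 were higher in HIR (44.4% of all genes), with a median log2 ratio of 0.32. Among them 1, Cxcl12, was at least 2-fold higher (1.53% of all genes) and 2 were at least 2-fold lower (1.8%). These 2 were Fbln2 and Fbln5, which are also on the matrix list and counted there. Whether the mix of vein-side and artery-side cells differed was not tested. Of 15 junction and barrier genes 10 were higher (44.4% of all genes) and 0 past 2-fold, with Cldn5, the claudin of tight junctions, at 2668 CPM in HIR and 1798 CPM in sham. Of 13 vascular tone genes 7 were higher, near that share, and 0 past 2-fold, with Nos3, endothelial nitric oxide synthase, at 138 CPM in HIR and 97.3 CPM in sham.

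Of 12 interferon response genes 7 were higher in HIR (44.4% of all genes) and only Oas1a passed 2-fold, at 131 CPM in HIR and 35.8 CPM in sham (3.67-fold, 2.58 to 5.34). Its log2 ratio was 1.63 in all members, 1.02 in those with no S100a8 or S100a9 UMI and 0.81 in those chosen after thinning to 2000 UMIs. Ifi27 and Bst2, other interferon-induced genes, were lower, at 2448 CPM in HIR against 3351 CPM in sham and at 145 against 292 CPM. The list median was 0.14 in members, 0.44 in capillary cells and 0.79 in aerocytes, and it was -0.25 in the members with no S100a8 or S100a9 UMI. Of 14 immediate early genes, which respond to stimulation and to tissue dissociation, 11 were higher (44.4% of all genes) and 0 past 2-fold, with Myc at 132 CPM in HIR and 66.1 CPM in sham and Fos at 1174 and 1095 CPM.

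Neutrophil RNA differed between the libraries in every endothelial group. The neutrophil markers summed to 486 CPM in HIR members and 83.5 CPM in sham members, 1608 and 226 CPM in capillary cells, and 3651 and 208 CPM in aerocytes, with Cxcr2 at 0 in members of both libraries. S100a8 was seen in 91 HIR members and 11 sham members, and 25 of 150 HIR and 91 of 115 sham members had no UMI of S100a8 or S100a9. Type 2 epithelial markers summed to 5044 CPM in HIR and 335 CPM in sham, but 1 HIR cell held 88.9% of the HIR sum. Without the mixed barcodes the sums were 571 and 358 CPM. Macrophage markers summed to 2787 and 353 CPM, or 552 and 375 CPM without those barcodes, and red cell markers to 2563 and 529 CPM, or 638 and 558 CPM. T and B cell markers summed to 9.22 CPM in HIR and 10.1 CPM in sham. Neutrophil markers without the mixed barcodes still summed to 435 CPM in HIR and 88.3 CPM in sham. The part of this RNA in the differences above was not tested. In the members with no S100a8 or S100a9 UMI, of which HIR had 25, genes moved both ways. Sele, Vcam1, Icam1, Tf, Cyp1a1, Oas1a and Wfdc1, among others, lay closer to a ratio of 1, as given above, and Csf1 changed direction. Serpinb9 and Igfbp5 lay farther from 1, as given above. So did Tfpi, with a log2 ratio of -2.07 against -1.54 in all members, Calr (-1.62 against -0.97) and Fabp5 (-2.58 against -1.99).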

How the data were processed

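Droplet counts of 2 lung libraries, 1 of HIR and 1 of sham, were analysed as UMI counts per gene and barcode, as deposited. Per the submitters' processing notes the tools were Cell Ranger 6.0, STAR and Seurat 4.0, with mm10. Per the file headers the matrices came from cellranger 5.0.0, and their features carry rat identifiers. Barcodes needed at least 200 genes, and at most 20% of their UMIs could be mitochondrial. Doublets were kept. As an alternative, the highest Scrublet scores (scanpy 1.11.5) were left out at 0.8% per 1000 barcodes, among them 11 HIR and 7 sham members.

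UMIs were summed over members and divided by their total, as CPM, without length correction. For log2 ratios 10 CPM was added to each value. Exact 95% intervals were Poisson for levels, Clopper-Pearson for shares and conditional binomial for ratios (scipy 1.17.1). The ratio intervals were tested on simulated Poisson counts. These counts had no spread between cells, so the test does not cover genes whose UMIs lie in few cells. Named genes were the 15 highest and 15 lowest log2 ratios among genes with a mean of at least 50 CPM, at least 50 UMIs, an interval without 1 and at least 25% of the level in other barcodes. Markers of other cells and mitochondrial, ribosomal, hemoglobin, Xist and immune receptor genes were not eligible. The 15 genes highest above capillary cells and members of the 23 function and 17 marker lists could also be named. Of 597 listed symbols, 578 were matched. Members and lists were chosen with earlier results of these data known and are not independent of them. TMM factors came from edgeR 4.0.16.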

Additional observations from a re-analysis of the deposited data

How the results depend on the processing

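Of 870 values of single genes under the alternatives, 680 moved by less than their counting error, 172 moved by more and 18 changed sign. With members that had no S100a8 or S100a9 UMI only (25 in HIR and 91 in sham), the share ratios were 0.302 of kept and 0.345 of endothelial barcodes. The barcodes they were divided by were not filtered in this way, so these ratios cannot show a change of share. In this setting 249 genes were at least 2-fold higher and 363 lower, the adhesion median was 0.30 and the interferon median -0.25. There the log2 ratio was -0.52 for Pla2g1b, 1.52 for Actg2, 0.55 for Tpm2, 0.16 for Myl9, 0.03 for Lmod1, -0.36 for Lbp and -0.59 for Csf1. Thinning to 2000 UMIs was followed by the rule with a sum of at least 2 UMIs, which chose 101 HIR and 82 sham members. In these, 332 genes were higher and 418 lower, the adhesion median was 0.21, the interferon median 0.29 and Lbp -0.07. With Slc6a2-positive members only, the adhesion median was 0.20, the interferon median -0.25, the junction median -0.24 and Pla2g1b -0.21. The interferon median was 0.06 at 10% mitochondrial UMIs, -0.14 with equal weight per cell and -0.45 at 100 CPM or more. Without Ackr3 in the rule Pla2g1b was -0.04. Without a level filter 136 genes were higher, at 100 CPM or more 32 were higher and 39 lower, with 1 CPM added 156 were lower, and with 50 CPM added 40 were higher and 38 lower.

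Alternatives chosen after seeing the data were these. Without the mixed barcodes the glucocorticoid median was 0.80, Pla2g1b -0.01 and Actg2 0.01. Without the arterial-gene members the interferon median was -0.10, Actg2 0.49, S100a4 0.29, Tpm2 0.36, Lmod1 0.03, Fabp4 -0.02 and Mgp -0.17. The causes were not tested, apart from fewer genes or cells by construction. Median-of-ratios factors moved the share higher among 2-fold genes to 52.9% and TMM factors to 50.3%, against 45.9% with CPM. No paired analysis was possible because each group has 1 library and the groups share only the replicate number 1.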
